A study of Mus musculus with 8 samples.

Results

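The circadian clock genes examined here were 10 members of the transcriptional loop that keeps daily time in mouse cells: Arntl, Clock, Npas2, Per1, Per2, Per3, Cry1, Nr1d1, Nr1d2 and Dbp. They were chosen by name, each read from its brightest probe set annotated to that gene alone. Of the 10, 9 had such a probe set, out of 22180 genes read this way, and all 9 lay above the dim limit of 2.88 log2 in each of the 8 arrays. Per2 has no value here, because the only probe set annotated to it is also annotated to 9830107B12Rik. The tissue was brown fat, which burns fuel for heat, from male C57BL/6J mice on normal chow, 14 weeks old, which had fasted overnight and then eaten for 1 h. The wild-type (WT) group held 3 mice and the group labelled as Abhd15 knockout (Abhd15 KO) held 5, with 1 mouse per 1-colour Affymetrix Mouse Gene 2.0 ST array. The sources used here give neither how the Abhd15 allele was made nor the clock time at which each mouse was killed. Values are log2 intensities, so 1 unit is a doubling, and the number of arrays limits their precision.

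In the mouse clock, the proteins BMAL1 (from Arntl) and CLOCK, or its paralog NPAS2, bind E-box DNA and switch on the Per, Cry, Nr1d and Dbp genes. PER and CRY proteins then block that pair, and the REV-ERB receptors encoded by Nr1d1 and Nr1d2 repress Arntl through ROR response elements (ROREs). As a result, Arntl peaks in mouse tissues, brown fat included, at about the opposite time of day from Nr1d1, Nr1d2, Dbp and Per3. DBP is an output factor that binds D-boxes, which several Per genes carry. Feeding time can shift the clock of peripheral tissues, and Per1 is also a direct target of cyclic AMP and glucocorticoid signals.

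RefSeq start windows of GRCm38.p6 (250 bases before the start and 50 after) were present for the 9 measured genes, 13 windows in all, and 4 of them are shown because they hold letters of the response elements named above. Capitals mark motif matches on either strand, and each sequence runs 5′ to 3′ along the gene's own strand. The Arntl window is chr7:113207261-113207560 on the plus strand, the Per3 window chr4:151044616-151044915 on the minus strand, the Per1 window chr11:69098699-69098998 on the plus strand and the Cry1 window chr10:85185005-85185304 on the minus strand.
Arntl: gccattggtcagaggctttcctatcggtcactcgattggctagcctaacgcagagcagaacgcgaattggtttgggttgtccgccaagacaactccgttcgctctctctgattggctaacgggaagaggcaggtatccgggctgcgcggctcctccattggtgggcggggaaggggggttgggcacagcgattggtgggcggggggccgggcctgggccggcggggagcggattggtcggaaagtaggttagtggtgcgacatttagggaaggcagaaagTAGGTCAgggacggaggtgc
Per3: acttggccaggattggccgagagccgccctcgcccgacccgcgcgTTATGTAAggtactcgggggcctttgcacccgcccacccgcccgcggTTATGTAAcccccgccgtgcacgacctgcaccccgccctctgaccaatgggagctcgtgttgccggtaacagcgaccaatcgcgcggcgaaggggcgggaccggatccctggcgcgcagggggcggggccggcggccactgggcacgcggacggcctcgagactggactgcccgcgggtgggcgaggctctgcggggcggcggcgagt
Per1: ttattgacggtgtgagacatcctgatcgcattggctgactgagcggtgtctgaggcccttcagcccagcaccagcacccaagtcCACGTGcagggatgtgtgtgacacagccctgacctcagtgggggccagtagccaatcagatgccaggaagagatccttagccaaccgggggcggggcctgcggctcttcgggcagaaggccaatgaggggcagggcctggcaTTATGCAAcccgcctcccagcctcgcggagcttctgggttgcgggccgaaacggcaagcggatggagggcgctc
Cry1: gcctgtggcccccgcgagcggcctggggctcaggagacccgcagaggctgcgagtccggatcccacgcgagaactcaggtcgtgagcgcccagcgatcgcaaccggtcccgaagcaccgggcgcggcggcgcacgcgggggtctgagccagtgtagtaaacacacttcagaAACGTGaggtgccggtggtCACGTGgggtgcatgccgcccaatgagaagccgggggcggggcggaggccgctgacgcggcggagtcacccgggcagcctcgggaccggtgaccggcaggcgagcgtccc
The Arntl window held the RORE core TAGGTCA at bases 281 to 287, inside the transcript, a motif found in 2.61% of all 32851 windows. The Per3 window held 2 D-boxes (TTATGNAA, in 3.38% of windows), at bases 46 to 53 and 93 to 100. The Per1 window held an E-box (CACGTG, in 7.15% of windows) at bases 85 to 90 and a D-box at bases 227 to 234. The Cry1 window held an E-box at bases 191 to 196 and, on the other strand, the E-box variant CACGTT (in 4.68% of windows) at bases 172 to 177. The Nr1d1 window held only the variant CACGTT, at bases 223 to 228 on the other strand. The Clock, Npas2, Nr1d2 and Dbp windows, the other Arntl window and the other Per1 window held none of these letters. The RORE core TGGGTCA (in 3.98% of windows) and the cyclic AMP response element TGACGTCA (in 1.79%) were also searched and matched no window of the 9 genes. No 2 matches overlapped in these windows. A match is a run of letters in a window, not a measured binding site.

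Values below run in replicate order, WT 1 to 3 and then the KO label 1 to 5. Abhd15 itself read 5.87, 5.94 and 6.23 in WT and 6.32, 6.14, 5.68, 6.34 and 6.13 under the KO label (exact two-sided permutation p = 0.518). It was thus not lower under the KO label. Which part of the gene was deleted is not stated in the labels, so a probe set outside it would check nothing, and genotype is used here only as labelled. The brown fat markers Ucp1 (12.51 to 12.89) and Cidea (12.02 to 12.19, an addition to the rule for named genes) were bright in all 8 arrays. WT replicate 2 and Abhd15 KO replicate 1 stood apart from the other 6 arrays in Angptl8, a feeding-induced regulator of lipoprotein lipase. It read 7.95 and 7.90 there and 10.42 to 10.81 elsewhere. The same arrays stood apart in Bhlhe40 and Bhlhe41, given below. They did not in the mean of a list of 24 feeding and fasting genes. That mean was 0.02 and −0.08 there, within −0.06 to 0.07 in WT and −0.13 to 0.12 under the KO label. The skeletal muscle list mean, relative to its mean over the arrays, ran from −1.12 to 1.66 in WT and from −1.66 to 0.88 under the KO label.

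No difference between the labelled genotypes was detected in any of the 9 clock genes. In a limma fit over 13229 genes, 0 of the 9 passed an adjusted p of 0.05 (0.0% of all tested genes passed) and 0 had an unadjusted p under 0.05 (4.01% of all tested genes did). The groups overlapped in each of the 9, where 2.77% of all tested genes had groups that did not. Of the 9, 3 read higher and 6 lower under the KO label (51.7% of all tested genes read higher), with a median difference of −0.07 log2 against 0.01 over all tested genes. The 95% confidence intervals of the differences reached 0.29 log2 to either side for Clock and 0.78 for Nr1d2, so changes of that size could not be seen. Reads of whole tissue cannot tell fewer cells of a type from less RNA per cell.

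**Figure D1:**
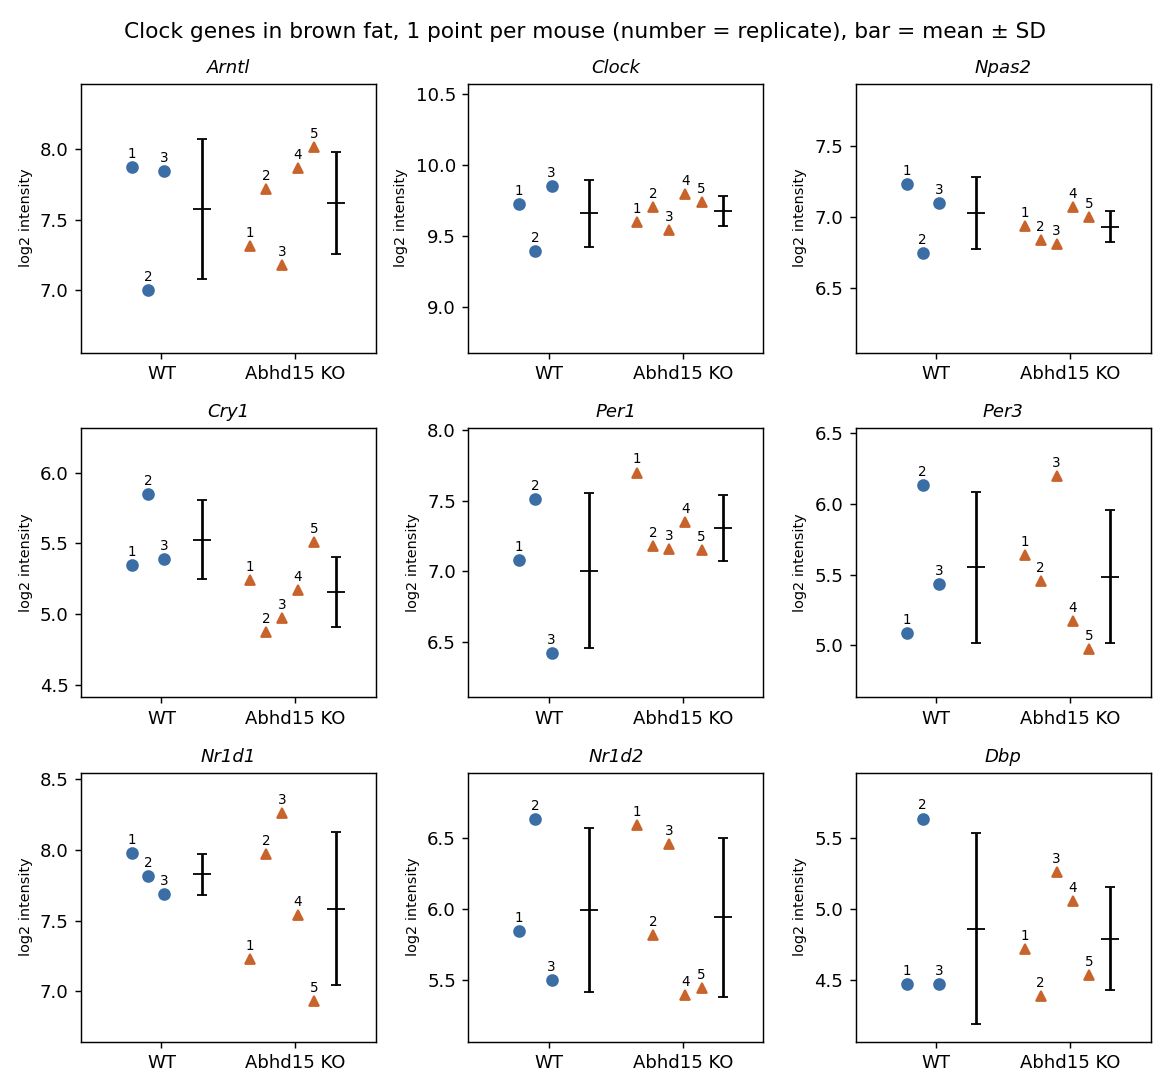
Log2 intensity of 9 clock genes (vertical axes, each spanning the same number of log2 units) in 3 WT mice (circles) and 5 mice labelled Abhd15 KO (triangles), numbered by replicate, with group mean ± SD as bars. The groups overlap in every panel, and WT replicate 2 lies at one end of its group in 8 of the 9 panels, all but Nr1d1.

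Arntl, which encodes the activator BMAL1, read 7.87, 7.01 and 7.85 in WT and 7.31, 7.71, 7.18, 7.86 and 8.02 under the KO label. WT replicate 2 and Abhd15 KO replicates 3 and 1 were the lowest, and both groups held low and high mice. Its mean was 7.58 ± 0.49 in WT (SD, n = 3) and 7.62 ± 0.36 in the KO-labelled arrays (SD, n = 5), so the KO label was 0.04 higher (95% confidence interval −0.54 to 0.62, exact permutation p = 0.875). The sign of this difference turned (−0.24) when WT replicate 2 was left out.
Clock, which encodes the partner of BMAL1, read 9.73, 9.40 and 9.85 in WT and 9.60, 9.70, 9.54, 9.80 and 9.74 under the KO label. The same array, WT replicate 2, was lowest, followed again by Abhd15 KO replicates 3 and 1. The whole range was 0.46 log2, a 1.37-fold span, and the difference between the groups was 0.02 (−0.28 to 0.31, exact permutation p = 0.911). Npas2, whose protein can stand in for CLOCK, read 7.23, 6.75 and 7.10 in WT and 6.94, 6.83, 6.81, 7.07 and 7.0 under the KO label. WT held both its lowest and its highest array, and the difference was −0.10 (−0.40 to 0.21, exact permutation p = 0.464).

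Among the repressors, Per3 had a wide spread inside both groups. It read 5.09, 6.14 and 5.43 in WT and 5.64, 5.45, 6.19, 5.17 and 4.98 under the KO label. Abhd15 KO replicate 3 and WT replicate 2 were the highest arrays, and the group difference was −0.07 (−0.75 to 0.61, exact permutation p = 0.893). Per1 read 7.08, 7.51 and 6.43 in WT and 7.70, 7.18, 7.16, 7.35 and 7.16 under the KO label. WT replicate 3 was lowest by 0.65 log2, and the difference of 0.30 (−0.23 to 0.83, exact permutation p = 0.339) was 0.01 without that array. Cry1, the cryptochrome of the repressor complex, read 5.34, 5.85 and 5.39 in WT and 5.24, 4.88, 4.97, 5.17 and 5.51 under the KO label. It had the lowest p of the 9: the means were 5.53 ± 0.28 (SD, n = 3) and 5.16 ± 0.25 (SD, n = 5), a difference of −0.37 (−0.77 to 0.02, exact permutation p = 0.107, limma adjusted p = 0.9997), with Abhd15 KO replicate 5 above 2 of the WT arrays.

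The nuclear receptors and Dbp varied by more than 2-fold between mice of the same label. Nr1d1 (REV-ERB alpha) read 7.98, 7.81 and 7.69 in WT and 7.23, 7.97, 8.26, 7.54 and 6.93 under the KO label. Its whole range, 1.33 log2 or 2.51-fold, lay within the KO-labelled group, and the difference was −0.24 (−0.87 to 0.38, exact permutation p = 0.464). Its paralog Nr1d2 (REV-ERB beta) read 5.84, 6.63 and 5.50 in WT and 6.59, 5.82, 6.46, 5.39 and 5.44 under the KO label. Here WT replicate 2 and Abhd15 KO replicates 1 and 3 were high, and the difference was −0.05 (−0.83 to 0.72, exact permutation p = 0.786). Dbp read 4.47, 5.64 and 4.47 in WT and 4.71, 4.38, 5.26, 5.05 and 4.53 under the KO label. WT replicate 2 was highest and Abhd15 KO replicate 2 lowest, and the difference of −0.07 (−0.75 to 0.61, exact permutation p = 0.875) turned to 0.32 without WT replicate 2.

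**Figure D2:**
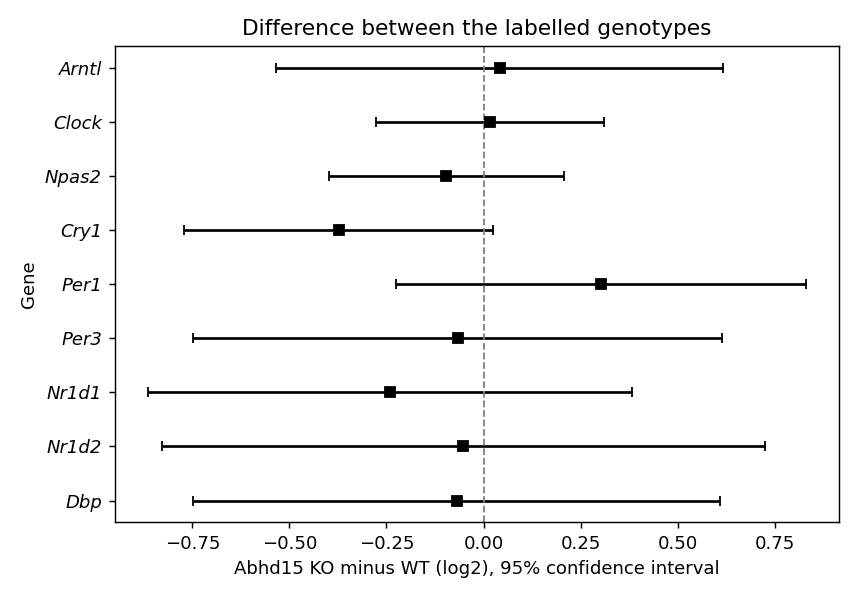
Difference between the labelled genotypes, Abhd15 KO minus WT in log2 units (horizontal axis), for each of 9 clock genes, with 95% confidence intervals from limma, each for a single gene. Every interval includes 0, and Cry1 comes closest to excluding it (−0.77 to 0.02).

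The spread between mice was the larger feature of these genes. The SD over the 8 arrays was above the median of all tested genes (0.23 log2) for 7 of the 9, all but Clock (0.15) and Npas2 (0.17). It was 0.53 for Nr1d2, at percentile 95.5 of all tested genes, 0.46 for Per3 (percentile 91.6), 0.45 for Dbp (91.5), 0.43 for Nr1d1 (89.9) and 0.38 for Arntl (84.2). Between the lowest and the highest mouse, Arntl changed 2.01-fold, Per3 2.32-fold and Dbp 2.38-fold.

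**Figure D3:**
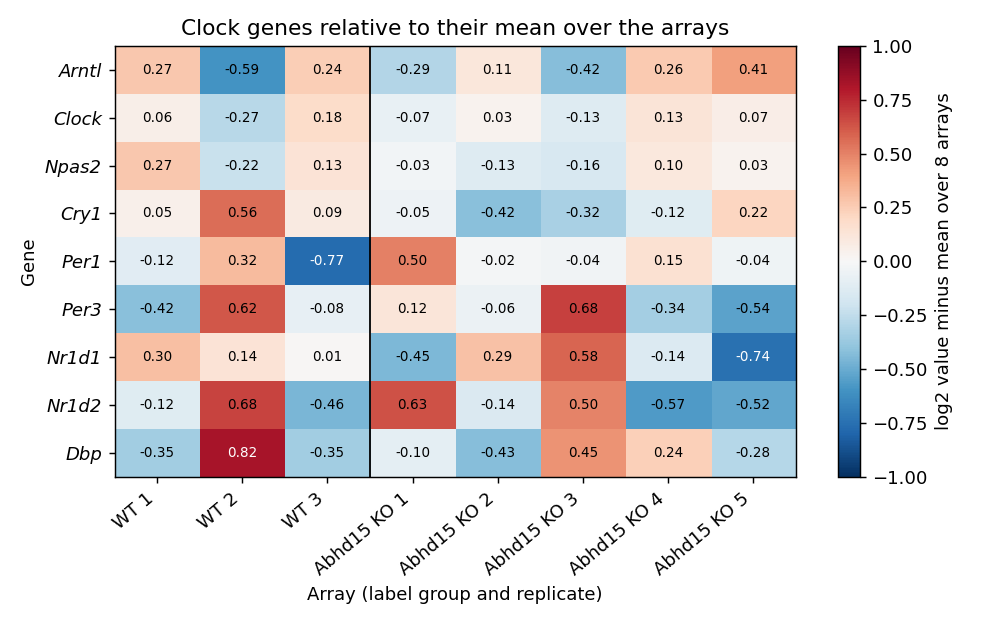
Log2 value of each of 9 clock genes (rows) in each array (columns, WT left of the line) minus the gene's mean over the 8 arrays. In WT replicate 2 and Abhd15 KO replicate 3, Arntl (−0.59 and −0.42), Clock and Npas2 lie below their means and Per3 (0.62 and 0.68), Nr1d2 and Dbp above them.

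Ordered by Arntl, the mice fell into nearly the reverse of their order by Per3. Over the 8 arrays, Arntl correlated with Per3 at r = −0.95 (exact permutation p = 0.000248, adjusted p = 0.00893 over the 36 pairs of members, Spearman rho = −0.98, exact p = 0.000397). Ranked from low to high, the mouse lowest in Arntl (WT replicate 2) was 7th in Per3 and the mouse highest in Arntl (Abhd15 KO replicate 5) was 1st. Without the 2 arrays farthest from the Arntl median r was −0.86, with values centred on their group mean it was −0.95, and without WT replicate 2 and Abhd15 KO replicate 1 it was −0.97. The relation was thus as large within the labelled genotypes as across them. The other activators did not pass the threshold against Per3: Clock correlated with it at −0.82 (exact permutation p = 0.0141, adjusted p = 0.0847), or −0.39 without the 2 arrays farthest from the Clock median. Npas2 correlated with Per3 at −0.79 (exact permutation p = 0.0218, adjusted p = 0.087).

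Arntl and Clock, the partners of the activating pair, moved together at r = 0.92 (exact permutation p = 0.00198, adjusted p = 0.0237, rho = 0.79, exact p = 0.0279, adjusted p of rho = 0.144). The call was lost on 6 arrays, with r at 0.75 without the 2 arrays farthest from the Arntl median (exact permutation p = 0.107) and 0.83 without WT replicate 2 and Abhd15 KO replicate 1 (exact permutation p = 0.0722). Clock and Nr1d2 moved in opposite directions at r = −0.91 (exact permutation p = 0.00156, adjusted p = 0.0237, rho = −0.88, exact p = 0.00724). WT replicate 2 and Abhd15 KO replicates 1 and 3 were lowest in Clock (9.40 to 9.60 against 9.70 to 9.85) and highest in Nr1d2. This r thus includes the gap in Nr1d2 given next. Without the 2 arrays farthest from the Clock median r was −0.88, with Abhd15 KO replicate 1 (6.59) the only array left high in Nr1d2. Arntl and Nr1d2 split the mice the same way. Abhd15 KO replicates 1 and 3 and WT replicate 2 read 7.01 to 7.31 in Arntl and 6.46 to 6.63 in Nr1d2, while the other 5 mice read 7.71 to 8.02 and 5.39 to 5.84. With such a gap on both axes no pooled correlation is given for this pair, and neither set of mice reaches the 6 arrays taken here as the least for a correlation.

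In the family of 36 pairs, 4 passed an adjusted p of 0.05 by Pearson's r (the 3 pairs given above and Arntl with Nr1d2) and 1 by Spearman's rho (Arntl with Per3), and 12 had an unadjusted exact permutation p under 0.05. Arntl and Npas2 correlated at 0.77 (exact permutation p = 0.032, adjusted p = 0.105, rho = 0.81, exact p = 0.0218), and 0.46 without the 2 arrays farthest from the Arntl median. Arntl and Dbp correlated at −0.77 (exact permutation p = 0.023, adjusted p = 0.087, rho = −0.57, exact p = 0.151), but r was −0.13 without the 2 farthest arrays, WT replicate 2 and Abhd15 KO replicate 3, so this relation rests on those mice. Abhd15 KO replicate 4 was high in both genes, with 7.86 in Arntl and 5.05 in Dbp.

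**Figure D4:**
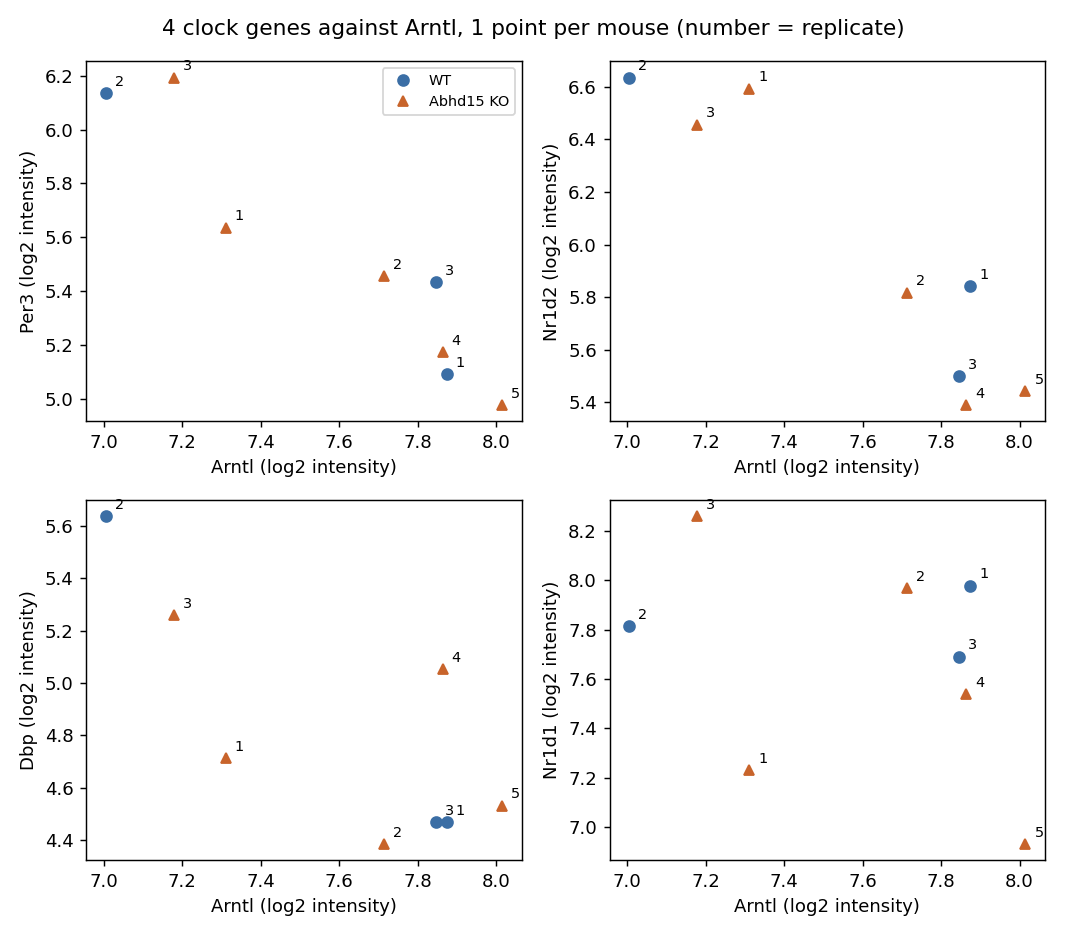
Log2 intensity of Per3, Nr1d2, Dbp and Nr1d1 (vertical axes) against Arntl (horizontal axes), 1 point per mouse, numbered by replicate, with WT as circles and the Abhd15 KO label as triangles. Per3 falls as Arntl rises, Nr1d2 splits the mice into 3 and 5, and Nr1d1 has Abhd15 KO replicate 1 (7.23) low together with Arntl.

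No pair with Nr1d1, Per1 or Cry1 passed the adjusted threshold. Nr1d1 correlated with Arntl at −0.37 (exact permutation p = 0.364, adjusted p = 0.567, rho = −0.38, exact p = 0.36) and with its paralog Nr1d2 at 0.30 (exact permutation p = 0.466, adjusted p = 0.646, rho = 0.38, exact p = 0.36). The receptors parted most in Abhd15 KO replicate 1, which ranked 2nd from the bottom in Nr1d1 and 7th in Nr1d2. Without that array and WT replicate 2, the pair that stood apart in Angptl8, r was −0.76 between Nr1d1 and Arntl and 0.79 between Nr1d1 and Nr1d2, over 6 mice (exact permutation p = 0.111 and 0.0736). Per1 correlated with Arntl at −0.52 (exact permutation p = 0.191, adjusted p = 0.362, rho = −0.57, exact p = 0.151), or −0.58 without the 2 farthest arrays, and with Clock at −0.64 (exact permutation p = 0.0876, adjusted p = 0.225), or −0.82 without them. By rank, Per1 and Dbp had the same correlation with Arntl. Cry1 correlated with Arntl at −0.16 (exact permutation p = 0.703, adjusted p = 0.791, rho = 0.12, exact p = 0.793), and this turned to 0.57 without WT replicate 2, the array highest in Cry1.

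**Figure D5:**
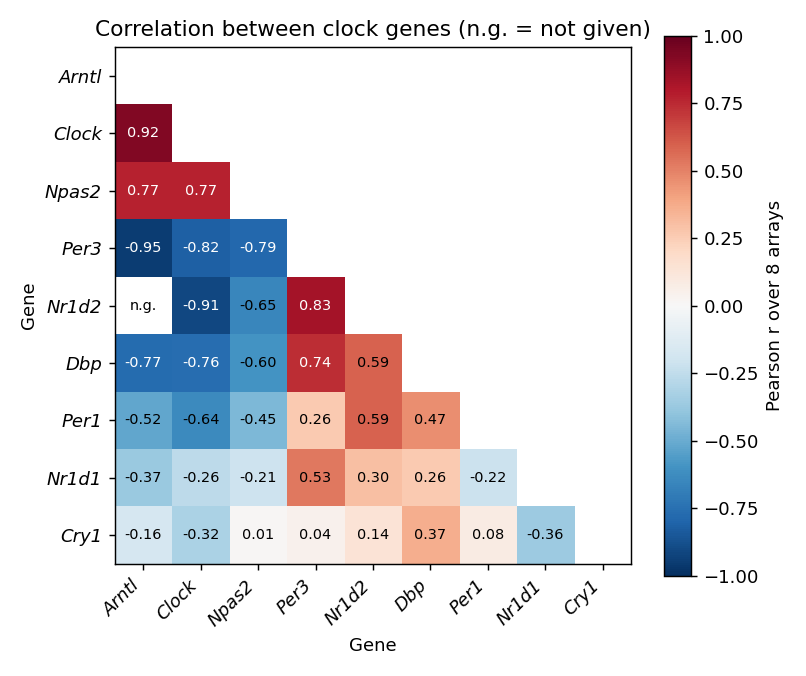
Pearson r over the 8 arrays between 9 clock genes (both axes list the genes, and colour and number give r). Arntl, Clock and Npas2 correlate positively with each other (0.77 to 0.92) and, in the cells given, negatively with Per3, Nr1d2 and Dbp. Nr1d1, Per1 and Cry1 stay within 0.64 of 0 against every other gene. The cell for Arntl with Nr1d2 is not given because the mice fall into separate sets on both axes.

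Read against all genes on the arrays, the share of large correlations differed between members. Of the 8 other members, 5 had an r of at least 0.7 in size with Arntl, where 12.9% of all tested genes did. The 5 include Nr1d2, for which no pooled r is given above because of the gap on both axes. They also include Npas2 and Dbp, whose r with Arntl was 0.46 and −0.13 without the 2 arrays farthest from the Arntl median. The count was 5 of 8 with Clock (11% of all tested genes) and 5 of 8 with Per3 (10.2%), and 3 of 8 with Npas2 (6.98%), Nr1d2 (13.0%) and Dbp (7.64%). It was 0 of 8 with Per1 (6.55%), Cry1 (4.87%) and Nr1d1 (3.79%). These pairs share the same 8 arrays, and genes are not independent replicates.

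The genes whose values over the 8 mice were most like Arntl, with both clock lists left out, were Sgk2 (r = 0.98, rho = 0.98), Pinx1 (0.98, 0.95), Plxnd1 (0.97, 0.86), Usp34 (0.96, 0.76) and Abcc9 (0.96, 0.86). Sgk2 encodes a kinase related to SGK1. It lay below the dim limit in WT replicate 2 (2.72) and Abhd15 KO replicate 3 (2.84). It read 3.09 in Abhd15 KO replicate 1 and reached 4.77 in Abhd15 KO replicate 5. The most opposite were Npc2 (−0.99, −0.81), Pold2 (−0.98, −0.90), Fam241b (−0.98, −0.86), Sap130 (−0.97, −0.93) and Itpr2 (−0.97, −0.90). Npc2, which encodes a lysosomal cholesterol-binding protein, ran from 9.45 to 9.97. An r at or above 0.9 with Arntl was found in 0.567% of all tested genes and one at or below −0.9 in 0.718%, and these genes were picked as the extremes of that search.
For Dbp the most alike were St3gal4 (0.95, 0.98), Klhl24 (0.94, 0.76), Trim44 (0.93, 0.93), Odr4 (0.92, 0.88) and Slc25a4 (0.92, 0.83), the ADP/ATP carrier of mitochondria. The most opposite were Rnf157 (−0.97, −0.86), Cdk10 (−0.96, −0.83), Firre (−0.96, −0.83), AY358078 (−0.95, −0.79) and Nup155 (−0.95, −0.95). Rnf157 lay below the dim limit in WT replicate 2 (2.54) and Abhd15 KO replicates 3 (2.69) and 4 (2.82), the arrays highest in Dbp. For Dbp 0.0983% of all tested genes reached 0.9 and 0.151% reached −0.9. Without the 2 arrays farthest from the Dbp median, r ran from 0.68 (Klhl24 and Odr4) to 0.91 (Slc25a4) in the alike genes. In the opposite genes it ran from −0.75 (AY358078) to −0.92 (Nup155). The same check around the Arntl median gave 0.88 (Plxnd1) to 0.97 (Sgk2) and −0.92 (Itpr2) to −0.97 (Npc2).

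Of 36 further clock genes listed by name, 31 had a probe set of their own and were tested. With limma 0 of the 31 passed an adjusted p of 0.05, 1 had an unadjusted p under 0.05 (4.01% of all tested genes did), 21 read higher and 10 lower under the KO label (51.7% of all tested genes read higher), and the median difference was 0.06. Usp2, a ubiquitin protease with rhythmic expression in mouse tissues, was that 1 gene and the 1 whose groups did not overlap, with 6.95 to 6.97 in WT and 7.27 to 7.67 under the KO label (exact permutation p = 0.0357, limma p = 0.00205, limma adjusted p = 0.9997). A count of 1 in 31 is near the background, where 2.77% of all tested genes had groups that did not overlap.

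Against Arntl, 3 of the 31 had an r of 0.7 or more and 2 of −0.7 or less, a share near the 12.9% of all tested genes with an r of that size. Csnk1a1, a casein kinase whose relatives mark PER proteins for breakdown, followed Arntl most closely (r = 0.89, exact permutation p = 0.00117, adjusted p = 0.0361 over the 31 genes, rho = 0.95, exact p = 0.00114), and was named after its value was seen. The repressors of E-box activity DEC1 and DEC2 split the mice in a partly different way. Bhlhe41 (DEC2) read 4.68 in WT replicate 2 and 4.85 in Abhd15 KO replicate 1 against 7.44 to 8.07 in the other 6, and Bhlhe40 (DEC1) 8.93 and 8.38 against 10.09 to 10.73. Abhd15 KO replicate 3, low in Arntl and high in Per3, read 7.58 in Bhlhe41 and 10.58 in Bhlhe40, inside the range of the other arrays. Both arrays low in the Bhlhe genes were also among those low in Arntl and high in Nr1d2, so the splits differed in Abhd15 KO replicate 3. Bhlhe41 was 1 of the 3 genes with an r of 0.7 or more against Arntl (r = 0.74, exact permutation p = 0.0493, adjusted p = 0.364, rho = 0.40). Bhlhe40 correlated with Arntl at 0.61 (exact permutation p = 0.0956, adjusted p = 0.423, rho = 0.36). Each r is to be read with the gap between the low arrays and the other 6.
Wee1, a cell cycle kinase under E-box control in mouse liver, peaked at 5.15 (WT replicate 2) and 5.08 (Abhd15 KO replicate 1). Cry2 ran from 5.84 to 6.67, Ciart from 3.76 to 4.74 and Nampt, an enzyme of NAD synthesis, from 9.82 to 10.33. Of the PAR-bZIP relatives of Dbp, Tef ran from 4.56 to 5.77, with WT replicate 2 lowest, and Hlf from 5.24 to 5.52. Nfil3, a repressor at D-boxes, ran from 6.63 to 7.81, and Rora, an activator at ROREs, from 4.57 to 5.38. Noct ran from 5.64 to 7.31 and Arntl2, a paralog of Arntl, from 4.40 to 5.51.

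Several readouts outside the clock were set beside the Arntl order. Ucp1, the uncoupling protein of brown fat, correlated with Arntl at 0.93 (exact permutation p = 0.000719, adjusted p = 0.00647 over 9 single genes, rho = 0.83, exact p = 0.0154). Without the 2 arrays farthest from the Arntl median r was 0.78, with Abhd15 KO replicate 1 the only array left low in Arntl. Ucp1 read 12.71, 12.51 and 12.76 in WT and 12.66, 12.78, 12.52, 12.81 and 12.89 under the KO label, so the whole span was small. WT replicate 2 and Abhd15 KO replicate 3 were again the lowest. The brown fat list as a whole (15 of 16 genes tested) correlated at 0.63 (exact permutation p = 0.0753, adjusted p = 0.491 over 9 lists, rho = 0.57), and Cidea at −0.79 (exact permutation p = 0.0269, adjusted p = 0.0807). Adipoq, also in that list and like Cidea an addition to the rule for named genes, correlated at −0.41 (exact permutation p = 0.295, adjusted p = 0.299, rho = −0.50). Of the immediate early genes, Egr1 correlated at −0.77 (exact permutation p = 0.0185, adjusted p = 0.0807), but its rho was −0.52 (exact p = 0.197). Fos correlated at −0.65 (exact permutation p = 0.0766, adjusted p = 0.138), with a rho of −0.17 (exact p = 0.703). Angptl8 correlated at 0.75 (exact permutation p = 0.0436, adjusted p = 0.098, rho = 0.64, exact p = 0.0962), a value to be read with the gap between its 2 low arrays and the other 6. Its r was 0.91 without the 2 arrays farthest from the Arntl median. There Abhd15 KO replicate 1 was the only array left low in both genes (7.90 in Angptl8 and 7.31 in Arntl), so that value rests on 1 mouse.

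Means of whole lists did not track Arntl past the threshold. The immediate early list (25 genes) correlated with Arntl at −0.51, the glucocorticoid target list (21 genes, Per1 left out) at −0.49, and the feeding and fasting list (24 genes) at −0.21, with adjusted exact permutation p of 0.491, 0.491 and 0.749 over 9 lists. The glucocorticoid list mean was largest in Abhd15 KO replicate 1 (0.38), then in WT replicate 2 (0.17), the arrays highest in Per1. Muscle genes (30 genes, r = 0.08), macrophage genes (20, −0.42), endothelial genes (12, 0.18), white fat genes (9, −0.24) and fibroblast genes (9, −0.51) gave adjusted exact permutation p from 0.491 to 0.85. The summed linear intensity of the macrophage list was 824 to 1331 in WT and 623 to 1134 under the KO label, and that of the fibroblast list 2088 to 2638 and 1720 to 2445. Beyond these correlations and the muscle list as a covariate, the part of these lists in the order of the clock genes was not tested. The part of harvest time or time since the last meal was not tested either.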

How the data were processed

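RNA of brown fat, 200 ng per mouse, was hybridised to 8 Affymetrix Mouse Gene 2.0 ST arrays. The deposited values are log2 intensities per probe set, made by the authors with RMA and oligo per the submitters' processing notes. The labels also name Expression Console, and versions and genome build are not given in the sources used here. RMA's quantile step would hide a shift shared by most genes. Of 41345 probe sets, 23521 have 1 gene symbol in the platform annotation, 1814 have several and were not used, and 16010 are unnamed. Entrez identifiers matched RefSeq GRCm38.p6 for 23328 (0 symbols changed). The brightest probe set per gene was kept (22180 genes). Genes above the 95th percentile of 1405 receptor probe sets of smell and pheromone sensing (2.88 log2) in at least 3 arrays, 13229 in all, were fitted with limma 3.58.1 in R 4.3.3 (lmFit, eBayes, Benjamini-Hochberg). Array medians were 3.00 to 3.04 and correlations between arrays 0.964 to 0.975.

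Single values were compared over all 56 splits of the arrays (smallest possible p 0.0179, two-sided) and correlations over all 40320 pairings. The plan named 45 pairs of members, and 36 remained because Per2 has no probe set of its own. Nothing in the labels states litters, cages or days, so the p-values treat the mice as independent and take no account of such grouping. Both steps were tested on simulated data. The members, gene lists and alternatives were chosen with earlier results of these data known. Named by rule were the members, a fixed set of listed clock genes (1 is not reported here) and the 3 others of largest SD, and the 5 genes most like and most opposite to Arntl and to Dbp, leaving out predicted genes and small RNAs. Alternatives were other filters, normalizations, probe set rules and variance models, the muscle list as a covariate, the replicate block and arrays left out.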

Additional observations from a re-analysis of the deposited data

Results flagged for a closer look

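In the KO-labelled group of 5, 3 of 49 genes checked had 1 array separated from the rest by more than Dixon's 95% critical value of 0.71 times the range, where chance flags about 1 in 20. All 3 were Abhd15 KO replicate 1. It read 8.38 in Bhlhe40 (the others 10.09 to 10.58), 4.85 in Bhlhe41 (7.44 to 8.05) and 7.90 in Angptl8 (10.42 to 10.81). None of the 9 clock members was flagged. The WT group of 3 was too small for this check.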

How the results depend on the processing

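No clock member, and no gene at all, passed the adjusted threshold under the 18 alternatives run (0 of 13229 with the settings reported, 530 at an unadjusted p under 0.05). The differences of Per1, Cry1 and Nr1d1 kept their sign but moved in size. With 1 array left out Per1 ran from 0.011 to 0.56 (0.30 with all), Cry1 from −0.46 to −0.21 (−0.37) and Nr1d1 from −0.41 to −0.078 (−0.24), and Nr1d1 was −0.0083 with the replicate block. Small differences of other members turned. With array weights Arntl was −0.030, Clock −0.029, Nr1d2 0.038 and Dbp 0.041. With the replicate number as a block Arntl was −0.17, Clock −0.046, Per3 0.21 and Nr1d2 0.30, and with WT replicate 2 and Abhd15 KO replicate 1 both left out Arntl was −0.17, Clock −0.10, Per3 0.19, Nr1d2 0.11 and Dbp 0.34. Same-numbered arrays deviated from their group means with r of −0.26, −0.10 and 0.02. No pairing by number was thus detected, though so few arrays cannot exclude one. The block changed no call. Leaving out 1 array at a time gave −0.24 to 0.19 for Arntl, −0.12 to 0.11 for Clock, −0.24 to 0.0067 for Npas2, −0.30 to 0.23 for Per3, −0.30 to 0.27 for Nr1d2 and −0.26 to 0.32 for Dbp.

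The r of Arntl with Dbp lost its unadjusted call in 9 of 16 alternatives. Among these were values within groups (−0.77), without WT replicate 2 and Abhd15 KO replicate 1 (−0.67) and by rank (−0.57). It was also lost without the 2 arrays farthest from the Arntl median (−0.13). The other losses came with 1 array left out, where r ran from −0.89 to −0.59 over all such cases. Arntl with Nr1d1 turned to 0.052 without the 2 farthest arrays. Arntl with Cry1 turned to 0.70 without the same named pair, 0.12 by rank and 0.37 without the 2 farthest, and ran from −0.44 to 0.57 with 1 array left out. Arntl with Clock lost its unadjusted call without the named pair (0.83) and without the 2 farthest arrays (0.75), and Arntl with Npas2 lost it in 7 of 16 alternatives. Arntl with Per3 kept its sign and its unadjusted call in all 16 alternatives run. Alternatives for pairs other than Dbp and Nr1d1 were chosen after seeing the data. Fewer arrays raise the smallest p. The cause of the other changes was not tested. The number of arrays limits the precision.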
